A study of Mus musculus with 10 samples.

Results

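The genes described here encode the subunits of the IL-12 family of cytokines. The members were taken by name as the subunits of IL-12, IL-23 and IL-27, and all 5 (Il12a, Il12b, Il23a, Il27 and Ebi3) were among the 55573 genes measured. RNA was sequenced from bone marrow–derived macrophages, cells obtained by culturing marrow with the growth factor M-CSF, after exposure to ligands of the endosomal RNA sensor TLR7. Each of 5 groups had 2 libraries, and every group was WT, from female C57BL/6 mice, kept in DMEM with FBS and M-CSF and harvested after 4 hours of treatment. One group received vehicle and another 5 μg polyU, a single-stranded RNA of uridines given with the lipid DOTAP. A further group, PNPi+dG/rG, received 1 μM ulodesine, which inhibits purine nucleoside phosphorylase, with 5 μM deoxyguanosine and 5 μM guanosine. PNPi+dG/rG+polyU was given all of these, and the last group 1 ng/mL R848, a synthetic TLR7 agonist.

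Every cytokine of the family pairs a helical chain with a chain that resembles a soluble receptor. The receptor-like p40 joins p35 in IL-12 and p19 in IL-23, while the receptor-like EBI3 joins p28 in IL-27 and p35 in IL-35. Macrophages and dendritic cells secrete IL-12, which drives IFN-γ production by T and NK cells, IL-23, which sustains T cells that make IL-17, and IL-27, which both promotes and restrains T cell responses.

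Levels are given as CPM, the reads of a gene scaled to a common library total, after subtracting the constant that the authors added. The vehicle libraries held 17820949 and 17798370 reads on genes, those of polyU 17598254 and 17208177, and those of PNPi+dG/rG 38392592 and 37402324. The PNPi+dG/rG+polyU libraries held 14128123 and 14214912, and those of R848 18831298 and 32659500. A floor of 3 reads was worth from 0.0781 CPM in the deepest library to 0.212 CPM in the shallowest. Groups were compared with limma on log2(CPM + 0.1) over 11978 genes with 1 CPM or more in 2 or more libraries. Genes past an adjusted p of 0.05 with a change of 2-fold or more were called, and near 0 reads this scale understates a change. All 5 members were tested, but Il12a entered only through PNPi+dG/rG+polyU and R848, Il23a only through R848 and Il27 only through polyU, PNPi+dG/rG+polyU and R848, so all 3 had to be higher in some groups to be tested at all.

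Because CPM depends on the whole library, the median over the tested genes is a reference for each change. That median log2 fold change was -0.49 for R848 and -0.22 for PNPi+dG/rG+polyU relative to vehicle, and -0.56 and -0.23 relative to polyU. It was 0.31 for PNPi+dG/rG+polyU relative to R848 and -0.26 for the interaction described further on. Values called centred come from libraries each centred on the median log2 value of its own tested genes, which shifts a comparison by an amount that can differ from the median given here.

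The cells carried macrophage markers. All 7 had at least 1 CPM in every library, summing to between 12957 and 17552 CPM, and the most abundant in each, Lyz2, had 7756 to 11494 CPM. Of these, Mertk was called lower than vehicle after PNPi+dG/rG+polyU (-2.16 on the log2 scale, limma adjusted p = 1.40e-12), against 14.7% of all tested genes. After R848, Mertk (-2.85) and Fcgr1 (-1.07) were called lower, against 30.0%, though Fcgr1 was not called with centred libraries (-0.47). These genes were named after their values were seen. The remaining markers changed by under 2-fold. After PNPi+dG/rG+polyU, Cd68 (-0.61), Csf1r (-0.60), Itgam (-0.39) and Lyz2 (-0.35) were lower, and Adgre1 (0.63) and Fcgr1 (0.26) higher. After R848, Cd68 (-0.73), Lyz2 (-0.49) and Csf1r (-0.36) were lower, and Adgre1 (0.38) and Itgam (0.15) higher. The list medians were -0.39 and -0.49.

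None of 7 dendritic cell markers reached 1 CPM in a library. Their sum was 0.112 and 0.337 CPM with vehicle, 0.568 and 0.930 after polyU, 0.313 and 0.481 after PNPi+dG/rG, 1.91 and 1.62 after PNPi+dG/rG+polyU and 0.637 and 0.582 after R848. It was highest in both libraries of PNPi+dG/rG+polyU, where Ccr7, the most abundant over the 10 libraries, had 0.779 and 0.774 CPM. Xcr1 and Cd209a had 0 reads in all 10 libraries, and Flt3 had 2 reads, both in PNPi+dG/rG.

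The 6 neutrophil markers summed to 2.92 and 3.54 CPM with vehicle, 5.40 and 3.49 after polyU, 3.10 and 2.83 after PNPi+dG/rG, 8.42 and 7.95 after PNPi+dG/rG+polyU and 23.0 and 25.2 after R848. Of these, 3 were tested (S100a8, S100a9 and Camp), and all 3 were called higher than vehicle after PNPi+dG/rG+polyU, against 8.28% of all tested genes. None of these 3 reached 2-fold once 1 CPM was added to each value (0.99 for S100a8, 0.70 for S100a9 and 0.73 for Camp), and the call of S100a9 was also lost without vehicle replicate 1 (0.86), vehicle replicate 2 (1.15) or PNPi+dG/rG+polyU replicate 2 (0.65), with no filter, with plain eBayes and with the deposited constant as pseudocount. S100a8 was the most abundant over the 10 libraries, at 21.0 and 23.4 CPM after R848. S100a8 and Camp were called higher than vehicle there, although Camp passed the filter through R848 alone. S100a9 was called lower after R848 (-3.51 on the log2 scale, limma adjusted p = 1.92e-07), and Ly6g had 0 reads in every library. Over all tested genes 9.41% were called higher and 30.0% lower after R848. The 4 plasmacytoid dendritic cell markers summed to between 321 and 507 CPM, of which Bst2 was the largest, and Siglech had 2 reads, in PNPi+dG/rG. The 5 T cell markers summed to between 4.04 and 14.4 CPM, Cd4 being the most abundant over the 10 libraries, and Cd3e had 0 reads throughout. Cd4 was called lower than vehicle after R848 (-3.12 on the log2 scale, limma adjusted p = 3.65e-10). Trac, the other T cell marker tested, was not called there (-0.0556, limma adjusted p = 0.854). The 4 NK cell markers summed to at most 0.787 CPM, mostly Klrb1c with Gzma at 0 reads throughout, and the 4 B cell markers, led by Ms4a1, to at most 0.337 CPM. The part of these markers in the results was not tested. In bulk RNA, a change in the number of cells expressing a gene cannot be told apart from a change in RNA per cell.

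Il12b encodes p40, the chain shared by IL-12 and IL-23 (ENSMUSG00000004296, GRCm38 chromosome 11, 44400063 to 44414033, plus strand). It had 1.29 and 1.40 CPM with vehicle, 1.25 and 1.15 after PNPi+dG/rG, 8.07 and 10.5 after polyU, 956 and 954 after R848, and 1801 and 1847 after PNPi+dG/rG+polyU. Vehicle and PNPi+dG/rG lay close together at the low end, polyU stood above them, and R848 and PNPi+dG/rG+polyU were far higher, each without overlap with the level below. Relative to vehicle the log2 fold change was 2.68 after polyU (standard error 0.0979, limma adjusted p = 1.06e-12), 9.37 after R848 (adjusted p = 6.76e-21) and 10.30 after PNPi+dG/rG+polyU (adjusted p = 2.60e-21), or 2.64, 9.96 and 10.51 centred. PNPi+dG/rG and vehicle were not separated by the test (-0.16, adjusted p = 0.701). PNPi+dG/rG+polyU was above R848 by 0.93 (adjusted p = 1.76e-07), or 0.55 centred, which is under 2-fold.

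Ebi3 encodes the receptor-like chain of IL-27 and IL-35 (ENSMUSG00000003206, GRCm38 chromosome 17, 55952640 to 55957022, plus strand). It had 46.6 and 50.4 CPM with vehicle, 49.9 and 47.5 after PNPi+dG/rG, 59.7 and 62.4 after polyU, 149 and 154 after PNPi+dG/rG+polyU and 215 and 230.2 after R848. Ebi3 was thus well expressed without stimulation, vehicle and PNPi+dG/rG overlapped, and polyU, PNPi+dG/rG+polyU and R848 followed in rising order without overlap. Relative to vehicle the log2 fold change was 0.33 after polyU (standard error 0.0587, limma adjusted p = 2.10e-04, under 2-fold), 1.64 after PNPi+dG/rG+polyU (adjusted p = 3.65e-14) and 2.19 after R848 (adjusted p = 2.76e-16), or 0.29, 1.85 and 2.79 centred. PNPi+dG/rG and vehicle were not separated (0.01, adjusted p = 0.994). PNPi+dG/rG+polyU differed from R848 by -0.56 (adjusted p = 1.81e-07), or -0.94 centred, under 2-fold. The antisense gene Gm16712 covers 2252 bp of Ebi3 and had 0.0561 to 0.779 CPM, and the libraries were stranded, though how reads on overlapping genes were assigned is not given in the sources used here.

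Il12a encodes p35, the helical chain of IL-12 and IL-35 (ENSMUSG00000027776, GRCm38 chromosome 3, 68690644 to 68698547, plus strand). It had 0 and 0 reads with vehicle, 0 and 0 after PNPi+dG/rG, 0 and 1 after polyU, 19 and 19 after PNPi+dG/rG+polyU (1.34 and 1.34 CPM) and 63 and 91 after R848 (3.35 and 2.79 CPM). The first 3 groups were at or next to 0 and cannot be ranked, PNPi+dG/rG+polyU was above them in both libraries, and R848 was higher still. It was at least 15.9-fold higher after PNPi+dG/rG+polyU and at least 35.5-fold higher after R848 than with vehicle, against a floor of 3 reads over the group (limma adjusted p = 5.58e-07 and 1.07e-08). Relative to polyU, with 1 read in the group, PNPi+dG/rG+polyU was 46.7 times as high, with a 95% exact binomial counting interval of 7.88 to 1891 (limma adjusted p = 2.40e-06), a call lost with the deposited constant as the only pseudocount. Such intervals and floors cover counting error only. Il12a passed the filter only through PNPi+dG/rG+polyU and R848, so the limma values given for it are descriptions only.

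Il12a was lower after PNPi+dG/rG+polyU than after R848, with a log2 fold change of -1.13 (standard error 0.448, limma adjusted p = 0.0315), or -1.51 centred. By reads R848 was 2.23 times as high, with a counting interval of 1.56 to 3.27. This call was lost without replicate 1 (adjusted p = 0.0774) or replicate 2 (0.0803) of PNPi+dG/rG+polyU and without replicate 1 (0.155) or replicate 2 (0.0738) of R848. It was also lost with no filter (adjusted p = 0.0564), with the deposited constant as the only pseudocount (adjusted p = 0.806) and with a pseudocount of 1 CPM, where the difference was -0.79 and under 2-fold. Over all alternatives the adjusted p ranged from 1.69e-04 to 0.806.

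Il23a encodes p19, the helical chain of IL-23 (ENSMUSG00000025383, GRCm38 chromosome 10, 128296139 to 128298752, minus strand). It had 0 and 2 reads with vehicle, 1 and 1 after polyU, 1 and 0 after PNPi+dG/rG, 2 and 4 after PNPi+dG/rG+polyU and 183 and 316 after R848 (9.72 and 9.68 CPM). The R848 libraries stood far above the other 8, which were all near 0 reads. Il23a passed the filter only through R848, so the limma values given for it are descriptions only. R848 was 173 times as high as vehicle, with a 95% exact binomial counting interval of 47.5 to 1429 (limma adjusted p = 1.69e-09). Against PNPi+dG/rG+polyU it was 45.8 times as high, with an interval of 20.9 to 125 (limma log2 difference of PNPi+dG/rG+polyU from R848 -5.01, standard error 0.478, adjusted p = 4.99e-08). That call was lost only with the deposited constant as pseudocount (-5.60, adjusted p = 0.124), in a range of 2.16e-12 to 0.124 over the alternatives.

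Whether Il23a rose after PNPi+dG/rG+polyU depended on the settings. The ratio to vehicle, from 6 reads against 2, was 3.77 with a counting interval of 0.674 to 38.2, and the limma adjusted p was 0.0574, so a rise was not detectable at this depth. The adjusted p was 0.0261 with centred libraries, 0.0333 with plain eBayes, 0.0146 without vehicle replicate 2 and 0.0351 without PNPi+dG/rG+polyU replicate 1, and ranged from 0.0146 to 0.394 over the alternatives.

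Il27 encodes p28, the helical chain of IL-27 (ENSMUSG00000044701, GRCm38 chromosome 7, 126589010 to 126594941, minus strand). It had 0.673 and 0.674 CPM with vehicle, 1.04 and 0.615 after PNPi+dG/rG, 3.13 and 3.66 after polyU, 99.6 and 99.1 after PNPi+dG/rG+polyU and 108 and 113 after R848. Vehicle fell within the range of PNPi+dG/rG, polyU was above both, and the remaining groups were far higher, R848 lying a little above PNPi+dG/rG+polyU. Il27 passed the filter only through polyU, PNPi+dG/rG+polyU and R848, so the limma values given for it are descriptions only. Relative to vehicle the log2 fold change was 2.17 after polyU (standard error 0.176, limma adjusted p = 2.69e-08), 7.01 after PNPi+dG/rG+polyU (adjusted p = 2.60e-16) and 7.16 after R848 (adjusted p = 8.48e-17), or 2.13, 7.22 and 7.75 centred. PNPi+dG/rG and vehicle were not separated (0.22, adjusted p = 0.784). Nor were PNPi+dG/rG+polyU and R848 (-0.15, adjusted p = 0.448), but they were separated, under 2-fold, in centred libraries (-0.53, adjusted p = 0.0131) and with only the compared groups in the fit, in a range of 0.0119 to 0.676 over the alternatives. Il27 shares 103 bp with Apobr on the opposite strand, which had 251 to 283 CPM over the 10 libraries.

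**Figure D1:**
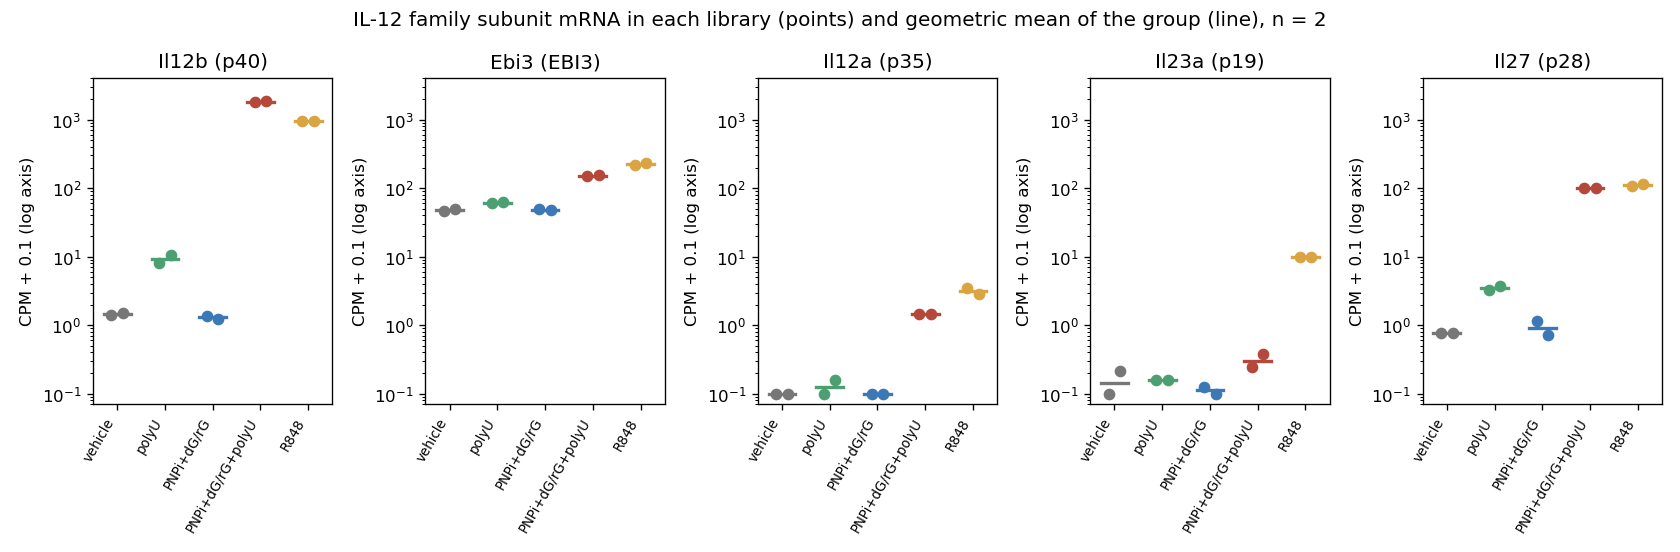
Level of each subunit gene (CPM + 0.1, log axis) in the 2 libraries (points) of each of the 5 groups, with their geometric mean (line). Il12b reaches 1801 and 1847 CPM after PNPi+dG/rG+polyU, and Il23a leaves the low end after R848 (9.72 and 9.68 CPM).

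Against vehicle, polyU raised 2 of the 5 members, Il12b and Il27, while 3.26% of tested genes were called higher. The labels name the lipid DOTAP only in the groups given polyU, so effects of polyU and of DOTAP cannot be told apart. PNPi+dG/rG raised 0 members in limma, where 0% of genes were called higher and 1110 had an unadjusted p under 0.05 in either direction. PNPi+dG/rG+polyU raised 4 members, the exception being Il23a, against 8.28% of genes, and R848 raised all 5, against 9.41%. These comparisons share the vehicle libraries, and the counts include Il12a, Il23a and Il27, which passed the filter only through the groups where they were high, so they are descriptions only.

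Relative to polyU alone, PNPi+dG/rG+polyU raised 4 members, again without Il23a, against 5.73% of genes. The log2 fold change was 7.62 for Il12b (limma adjusted p = 3.28e-19), 4.84 for Il27 (adjusted p = 1.04e-13) and 1.31 for Ebi3 (adjusted p = 1.85e-12), or 7.87, 5.09 and 1.56 centred. Il23a was called in centred libraries (1.20), which makes 5 members. R848 raised 5 members relative to polyU, against 8.32% of genes, and these counts too are descriptions only. Relative to R848, PNPi+dG/rG+polyU had Il23a and Il12a called lower, while 4.68% of genes were called lower. That count of 2 is a description only, since Il23a passed the filter through R848 alone and Il12a through these 2 groups alone, and the call of Il12a was lost without any 1 of the 4 libraries compared. PNPi+dG/rG+polyU had 0 members called higher in limma, against 16.6%, with 8875 genes under an unadjusted p of 0.05 in either direction.

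An interaction term asked whether PNPi+dG/rG had a different effect with polyU than without it. It was called and positive for 4 members, against 5.04% of genes, a count that is a description only, since it includes Il12a and Il27, which passed the filter only through groups where they were high. The term was 7.77 for Il12b (standard error 0.138, limma adjusted p = 7.88e-17), 4.61 for Il27 (standard error 0.249, adjusted p = 6.65e-11) and 1.30 for Ebi3 (standard error 0.0830, adjusted p = 6.13e-10), or 8.06, 4.90 and 1.59 centred. For Il12a it was 3.52 (adjusted p = 1.85e-04), a value that depends on the pseudocount and was not called with the deposited constant alone, and for Il23a 1.32 (adjusted p = 0.109), not called, although without vehicle replicate 1 it was 1.87 and called.

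Partner chains were compared per kb of exon, since a longer transcript yields more reads. Exons of the coding transcripts came to 1.37 kb for Il12a, 1.97 kb for Il12b, 1.36 kb for Il23a, 1.02 kb for Il27 and 1.15 kb for Ebi3. RNA was measured here, not the chains or the dimers. In all 20 combinations of 4 dimers and 5 groups, the helical chain was the less abundant RNA in both libraries, whether exons of coding or of all transcripts were used, a choice made after the values were seen.

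For IL-12, p35 RNA was scarce beside p40 RNA in every group. With PNPi+dG/rG+polyU, Il12a had 0.982 and 0.976 CPM per kb and Il12b 916 and 939, a 947-fold excess of p40 (1176-fold with exons of all transcripts). With R848 the values were 2.44 and 2.03 for Il12a and 486 and 485 for Il12b, a 217-fold excess (269-fold with all). Vehicle and PNPi+dG/rG had 0 reads of Il12a and polyU had 1, so RNA of both IL-12 chains stood above the floor only after PNPi+dG/rG+polyU and R848.

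For IL-23, RNA of both chains exceeded 3 reads in both libraries only after R848. There Il23a had 7.15 and 7.11 CPM per kb, and p40 RNA was in 68.1-fold excess, or 113-fold with exons of all transcripts. With PNPi+dG/rG+polyU, where Il12b was highest, Il23a had 0.104 and 0.207 CPM per kb, from 2 and 4 reads.

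For IL-27, both RNAs were above the floor in all 5 groups, and the gap between them varied. With vehicle, Il27 had 0.660 CPM per kb on average and Ebi3 42.0, a 63.7-fold excess of EBI3. The excess was 52.0-fold after PNPi+dG/rG and 15.9-fold after polyU. With R848 it was 1.78-fold (108 and 193 CPM per kb) and after PNPi+dG/rG+polyU 1.35-fold (97.3 and 131), so p28 RNA came nearest to its partner in these groups. For IL-35, which shares its chains with IL-12 and IL-27, EBI3 RNA was in 134-fold excess over p35 after PNPi+dG/rG+polyU and 86.1-fold after R848 (166-fold and 107-fold with exons of all transcripts).

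**Figure D2:**
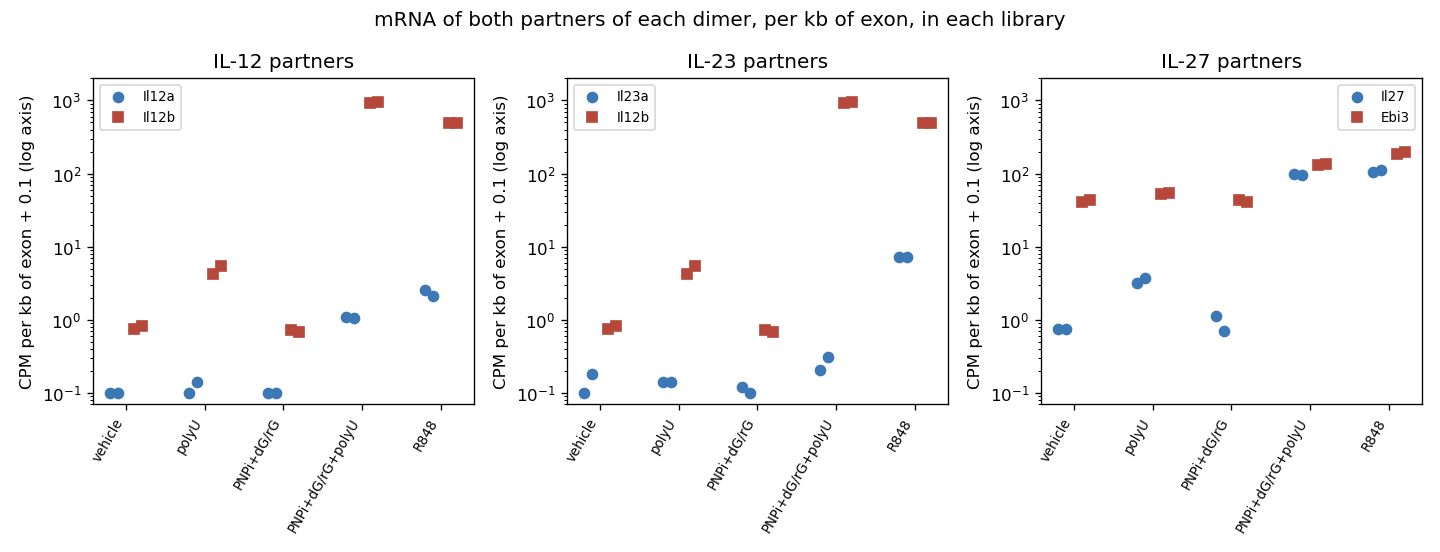
CPM per kb of exon, plus 0.1, on a log axis, of the helical chain (circles) and its receptor-like partner (squares) of IL-12, IL-23 and IL-27 in every library of the 5 groups. The IL-27 partners lie 1.35-fold apart after PNPi+dG/rG+polyU and 63.7-fold apart with vehicle.

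The ratio of Il27 to Ebi3 was taken within each library, with 0.1 CPM added to both values, and compared over the 5 groups by an exact permutation test, which takes each of the 945 ways to split the 10 libraries into 5 pairs. The log2 ratio was -5.97 ± 0.0780 with vehicle, -5.75 ± 0.429 after PNPi+dG/rG, -4.13 ± 0.113 after polyU, -1.01 ± 0.0221 after R848 and -0.61 ± 0.0392 after PNPi+dG/rG+polyU (SD, n = 2, exact permutation adjusted p = 0.00529 over 5 ratios). Both PNPi+dG/rG+polyU libraries had higher ratios than any other library. The adjustment includes the ratios that hold Il12a or Il23a, and the unadjusted exact permutation p for Il27 to Ebi3 was 0.00317. The test covers all 5 groups together, and 2 libraries against 2 cannot give an exact p under 0.333.

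Tests of the ratios that hold Il12a or Il23a are given only under how the results depend on the processing, and no conclusion is drawn from them. In the groups near 0 reads these ratios reflect the added 0.1 CPM. On the same scale the log2 ratio of Il12a to Il12b was -8.24 ± 0.179 after R848 and -10.31 ± 0.0311 after PNPi+dG/rG+polyU (SD, n = 2), and that of Il23a to Il12b -6.61 ± 0.00227 after R848. Between the helical chains that compete for p40, the log2 ratio of Il23a to Il12a was 1.64 ± 0.176 after R848 (SD, n = 2), while PNPi+dG/rG+polyU had 2 and 4 reads of Il23a and 19 and 19 of Il12a.

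For Il12b, Ebi3 and Il27, the tested genes with the most similar pattern were those with the smallest root mean square difference over 10 libraries, in log2 units after subtracting the vehicle mean. Nearest to Il12b were Edn1 (0.568), Adamts4 (0.760) and Cxcl1 (0.894), and nearest to Ebi3 Cybb (0.0833), Abracl (0.0889) and Serp1 (0.114). Edn1, which encodes endothelin-1, had a mean of 0.140 CPM with vehicle, 145 after PNPi+dG/rG+polyU and 113 after R848. Nearest to Il27 were Mir155hg (0.391), Adora2a (0.458) and Nfkbiz (0.482). Where a neighbour is near 0 reads with vehicle, as Edn1 is, the distance depends on the pseudocount, and for Il12a and Il23a no neighbours are given for that reason.

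Among 11 activators of subunit transcription, 3 were called higher after polyU, 0 after PNPi+dG/rG, 6 after PNPi+dG/rG+polyU and 8 after R848, all relative to vehicle, and 1 was called lower in each of the last 2 comparisons. Over all tested genes 3.26%, 0%, 8.28% and 9.41% were called higher in these comparisons, and 14.7% and 30.0% lower in the last 2. The median log2 fold change of the list was 1.43 after PNPi+dG/rG+polyU and 1.59 after R848, beside -0.22 and -0.49 over all genes. In centred libraries 8 were called higher and 1 lower in the former comparison and 8 and 1 in the latter. Centring gave 1214 and 1264, and 1846 and 2054, of the 11978 tested genes called higher and lower in these comparisons. Nfkbiz, a nuclear IκB protein, had 13.1 ± 0.0117 CPM with vehicle, 1466 ± 66.6 after PNPi+dG/rG+polyU and 1055 ± 6.36 after R848 (SD, n = 2), with log2 fold changes of 6.80 and 6.32 (limma adjusted p = 1.04e-18 and 5.09e-19). Batf, of the AP-1 family, changed by 4.11 and 4.22 (limma adjusted p = 2.90e-15 and 8.78e-16), and Nfkb1, which encodes the NF-κB subunit p105, by 2.55 and 2.88 (limma adjusted p = 1.26e-18 and 8.27e-20).

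Irf1, an interferon regulatory factor, had 21.8 ± 0.496 CPM with vehicle, 109 ± 9.12 after polyU, 252 ± 13.6 after PNPi+dG/rG+polyU and 66.2 ± 4.57 after R848 (SD, n = 2). It was 1.93 higher on the log2 scale after PNPi+dG/rG+polyU than after R848 (limma adjusted p = 1.51e-13). The activators called lower than vehicle, named after their values were seen, were Irf8 after PNPi+dG/rG+polyU (-1.59, limma adjusted p = 1.93e-14) and Irf5 after R848 (-2.05, limma adjusted p = 4.48e-15). Irf8 had 231 ± 11.9 CPM with vehicle, 76.6 ± 0.467 after PNPi+dG/rG+polyU and 158 ± 7.29 after R848 (SD, n = 2).

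Of 4 repressors, 1 was called higher than vehicle after polyU, 0 after PNPi+dG/rG, 2 after PNPi+dG/rG+polyU and 2 after R848, where 1 was called lower (Atf3, -2.02, limma adjusted p = 5.99e-14, named after its value was seen). The shares over all tested genes were 3.26%, 0%, 8.28% and 9.41% higher, and 30.0% lower after R848. The list median was 1.54 after PNPi+dG/rG+polyU and 2.19 after R848, and centring gave 3 called higher after R848, where 1846 and 2054 of all tested genes were then called higher and lower. Bcl3, another nuclear IκB protein, had 11.6 ± 0.804 CPM with vehicle, 185 ± 0.546 after PNPi+dG/rG+polyU and 262 ± 23.5 after R848 (SD, n = 2). Nfil3 had 5.76 ± 0.432, 29.2 ± 2.32 and 81.3 ± 6.33 CPM in the same groups (SD, n = 2), with log2 fold changes of 2.32 and 3.80 (limma adjusted p = 1.95e-12 and 8.01e-16).

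Of 5 receptor genes of the family, 3 were tested, since Il12rb1 and Il23r were too low. None was called after polyU, PNPi+dG/rG or PNPi+dG/rG+polyU. Over all tested genes 3.26%, 0% and 8.28% were called higher in these comparisons, and 0.86%, 0.00835% and 14.7% lower. After R848, 2 receptor genes were called lower than vehicle, Il12rb2 and Il6st, while 30.0% of all tested genes were called lower. Both were named after their values were seen. The list median was -0.31 after PNPi+dG/rG+polyU and -1.17 after R848. Il12rb2, a chain of the IL-12 receptor, had 17.6 ± 0.461 CPM with vehicle, 16.7 ± 1.72 after PNPi+dG/rG+polyU and 2.92 ± 0.757 after R848 (SD, n = 2), a log2 fold change of -2.57 after R848 (limma adjusted p = 1.03e-11). Il6st, the gp130 chain of the IL-27 receptor, had 146 ± 1.18, 74.9 ± 2.97 and 64.8 ± 0.417 CPM (SD, n = 2), and its log2 fold change after R848 of -1.17 (limma adjusted p = 5.27e-13) was -0.58 centred, under 2-fold.

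Jak2, a kinase of the IL-12 and IL-23 receptors, had 49.8 ± 1.82 CPM with vehicle, 430.2 ± 13.0 after PNPi+dG/rG+polyU and 774 ± 6.90 after R848 (SD, n = 2). Its log2 fold changes were 3.11 and 3.96 relative to vehicle (limma adjusted p = 9.05e-19 and 1.15e-20).

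Of the cytokines that act beside the family, Il6 had 1 and 0 reads with vehicle, and 81.9 ± 7.73 CPM after PNPi+dG/rG+polyU and 272 ± 10.5 after R848 (SD, n = 2), or 2918 times (523 to 115308) and 9618 times (1726 to 379927) the vehicle level with 95% exact counting intervals. Il1b had 2.05 ± 0.117 CPM with vehicle, 699 ± 53.1 after PNPi+dG/rG+polyU and 6654 ± 137 after R848 (SD, n = 2). Il10, which restrains macrophages, had 1.99 ± 0.0379, 114 ± 2.40 and 109 ± 1.02 CPM in the same groups, and Il18, which acts with IL-12 on NK cells, 2.50 ± 0.0375, 14.7 ± 0.385 and 9.34 ± 0.528 (SD, n = 2). Ifng was not tested and had 1 read over the 10 libraries, in R848.

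Promoter sequence is shown for members whose RNA rose with the same treatments. RefSeq promoters on GRCm38.p6 were matched for 3 of 5 members, Il12b, Ebi3 and Il12a (with 2 starts), and not for Il23a and Il27. Below are the 250 bases before each start, on the plus strand from 5′ to 3′, with capitals for matches on either strand to any of 4 motifs. These were κB (GGG and CC around any 5 bases), AP-1 (TGANTCA), an interferon response element (GAAA and GAAA around any 2 bases) and PU.1 (GAGGAAG).
Il12b (chr11:44399813-44400062, plus strand): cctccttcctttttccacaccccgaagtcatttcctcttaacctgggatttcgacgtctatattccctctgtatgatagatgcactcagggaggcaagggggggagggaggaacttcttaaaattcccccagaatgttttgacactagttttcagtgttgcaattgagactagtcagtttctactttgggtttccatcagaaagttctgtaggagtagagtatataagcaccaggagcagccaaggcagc
Ebi3 (chr17:55952373-55952622, plus strand): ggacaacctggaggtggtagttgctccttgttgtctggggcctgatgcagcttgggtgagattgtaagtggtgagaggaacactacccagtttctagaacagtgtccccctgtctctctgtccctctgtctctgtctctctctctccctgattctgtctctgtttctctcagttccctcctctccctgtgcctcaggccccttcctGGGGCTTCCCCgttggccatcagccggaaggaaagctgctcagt
Il12a first start (chr3:68690394-68690643, plus strand): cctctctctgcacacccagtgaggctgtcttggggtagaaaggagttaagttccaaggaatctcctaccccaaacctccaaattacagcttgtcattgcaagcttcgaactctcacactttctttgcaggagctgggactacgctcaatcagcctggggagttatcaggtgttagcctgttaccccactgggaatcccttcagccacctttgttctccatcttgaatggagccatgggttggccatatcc
Il12a second start (chr3:68691174-68691423, plus strand, in an intron of the longer transcript): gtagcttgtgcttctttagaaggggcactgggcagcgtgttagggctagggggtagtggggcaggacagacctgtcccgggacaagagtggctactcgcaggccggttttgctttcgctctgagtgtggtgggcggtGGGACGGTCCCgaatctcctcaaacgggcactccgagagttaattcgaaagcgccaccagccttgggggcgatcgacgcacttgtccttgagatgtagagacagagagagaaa
The κB letters were found before Ebi3 and before the second start of Il12a, in each case at overlapping positions on both strands. None of the 4 motifs was found in the windows of Il12b and the first start of Il12a. Among 32851 promoters, 45.8% hold the κB letters in 250 bases, 6.75% those of AP-1, 2.98% those of the interferon response element and 10.6% those of PU.1. A match, or the lack of one, describes letters in a window and nothing more.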

How the data were processed

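RNA of 10 macrophage libraries was compared in 5 groups of 2, as their labels define them. The authors mapped reads with STAR 2.27a to GRCm38 after bcl2fastq 2.19.1.403 (versions from the submitters' processing notes), and the deposited values are CPM plus a constant of 0.0001. Of 55573 gene identifiers, 55394 had a symbol, and exon lengths and positions came from GENCODE M21 (Ensembl 96). CPM is not corrected for gene length or for a library's makeup.

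Low values, less the constant, were whole multiples of 1 read within 0.05 reads in 100% of cases, and the reads so obtained were used for depth, floors, counting intervals and ratios of genes near 0 reads. Replicates differed beyond a 0.05 chi-square level in 15.81% to 26.25% of genes with at least 50 reads. They are labelled biological replicates, with no word on separate cultures, so p-values reflect the spread between these libraries.

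The model was limma 3.58.1 (eBayes, trend and robust, 2-sided, statmod 1.5.0, R 4.3.3), tested on simulated data, with Benjamini-Hochberg adjustment in each of 8 comparisons. Partner ratios used an exact permutation test of the between-group sum of squares, 1-sided by construction (Python 3.11.15, numpy 2.4.6, scipy 1.17.1, pandas 2.3.3, matplotlib 3.10.9). Members and lists were chosen with earlier results of these data known, and the exon set, its alternative and the motifs after seeing the values. Named were all members, up to 4 called genes per list with the largest change in PNPi+dG/rG+polyU relative to vehicle, 3 nearest genes of Il12b, Ebi3 and Il27 and the most abundant marker of each list. Some listed genes, and the counts and medians of their lists, are not reported here. Alternatives were the pseudocount, the filter, centring, plain eBayes, only the compared groups, a replicate block and leaving out each library.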

Additional observations from a re-analysis of the deposited data

Results flagged for a closer look

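For Il12b and Ebi3 the effect of PNPi+dG/rG differed between cells with and without polyU, by limma's test of that difference. On the log2 scale the difference was 7.77 for Il12b and 1.30 for Ebi3. Il12a was also called (3.52), but it had 0, 1 and 0 reads in the vehicle, polyU and PNPi+dG/rG groups, was tested only because of the groups where it was high, and was not called with the deposited constant as the only pseudocount. Il27 was called as well (4.61), also under every alternative. It too passed the filter only through groups where it was high, so its value is a description only. Groups of 2 libraries are too small to look for a library that stands apart.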

How the results depend on the processing

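Il12b, Il27 and Ebi3 kept direction and call under every alternative run, except that signs turned in PNPi+dG/rG relative to vehicle, where no member was called. There Ebi3 was -0.0267 with centred libraries and -0.0503 to 0.0616 leaving out a library, Il27 -0.11 to 0.56 and Il23a -0.92 to 0.17. Il23a with polyU relative to vehicle was -0.43 to 0.65 leaving out a library. The cause was not tested.

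Between PNPi+dG/rG+polyU and R848, Il12a was -1.19 with the deposited constant as pseudocount, -0.79 with 1 CPM and -1.13 with no filter, none called, and -1.26 to -1.002 leaving out a library, not called without any of the 4 libraries compared. Il23a was -5.60 with the constant, not called. Members called were 0 with the constant, 1 with 1 CPM, 1 with no filter, 1 with a filter on the mean, which Il12a does not pass, and 1 to 2 leaving out a library. With the constant Il12a lost its call relative to polyU (9.12) and in the interaction (9.12). Il23a gained a call with PNPi+dG/rG+polyU relative to vehicle with centring (1.27) and plain eBayes (1.06), with 0.52 to 1.60 leaving out a library, relative to polyU with centring (1.20), and in the interaction without vehicle replicate 1, in a range of 0.78 to 1.87.

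Ratios that hold Il12a or Il23a rest on the pseudocount in the groups near 0 reads. With 0.1 CPM their exact permutation adjusted p was 0.00529 for Il12a/Il12b and Il23a/Il12b, 0.0198 for Il12a/Ebi3 and 0.0222 for Il23a/Il12a. With the constant the exact permutation adjusted p was 0.582 for Il12a/Il12b, 0.606 for Il23a/Il12b, 0.103 for Il12a/Ebi3 and 0.599 for Il23a/Il12a. With 1 CPM it was 0.0751 for Il12a/Ebi3. These outcomes moved with the pseudocount, so no conclusion is drawn from them. Genes called with polyU were 303 with 1 CPM, against 494. With PNPi+dG/rG limma called 1 gene, 9 with the constant, 0 with 1 CPM, 3 with only the compared groups and 1 to 5 leaving out a library. Centring moved the genes called higher and lower to 1846 and 2054 (uncentred 1127 and 3595) for R848 and 1214 and 1264 (uncentred 992 and 1759) for PNPi+dG/rG+polyU relative to vehicle, 901 and 772 (uncentred 686 and 1246) and 1858 and 1890 (uncentred 997 and 3742) for PNPi+dG/rG+polyU and R848 relative to polyU, 1110 and 952 (uncentred 1985 and 561) for PNPi+dG/rG+polyU relative to R848, and 841 and 599 (uncentred 604 and 1126) for the interaction.

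Groups share replicate numbers. The correlation of same-numbered libraries' deviations, across genes, which are not independent, was 0.249 for vehicle and polyU, 0.159 for vehicle and R848 and 0.117 for polyU and R848, but -0.297, -0.279 and -0.120 for PNPi+dG/rG with vehicle, polyU and R848, and from -0.0390 to 0.0565 for PNPi+dG/rG+polyU with the other groups. Not every pair of groups deviated together, so the numbers were not taken to pair the libraries. With the replicate block, genes called relative to vehicle were 4721 for R848, 492 for polyU, 1 for PNPi+dG/rG and 2752 for PNPi+dG/rG+polyU, and no call of a member changed. A library left alone in its group is assumed to vary like the rest. The planned count tests, edgeR and DESeq2, were not run, although low values less the constant were whole reads, so the calls rest on limma alone. Depth limits Il12a and Il23a, whose groups at 3 or fewer reads cannot be ranked.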
